A study of Mus musculus with 10 samples.

Results

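A set of 10 enzymes that remove superoxide and hydrogen peroxide was followed in the skeletal muscle of smoke-exposed mice with and without the aryl hydrocarbon receptor (AHR). They are the superoxide dismutases *Sod1*, *Sod2* and *Sod3*, the catalase gene *Cat* and the peroxiredoxins *Prdx1* to *Prdx6*, chosen by gene family and found by Ensembl identifier among the 49315 rows of the count table, where 10 of 10 were present and 10 of 10 passed the filter on low counts, which left 14714 genes to test. The AHR is a transcription factor that is activated by compounds in tobacco smoke. The samples were 10 gastrocnemius muscles from male mice on a C57BL6J background, 5 AHR-floxed (AHRfl/fl) and 5 muscle-specific AHR knockouts (AHRmKO), and 1 library was made from each mouse. Both genotypes carried the floxed *Ahr*, both were exposed to cigarette smoke for 16 weeks, in 2 sessions of 1 h per day on 5 days per week at an average of 220 ± 80 mg/m3, and by the series description the muscles were taken 72 h after the last smoke, the end of the range of hours given in the study's text. AHRmKO mice also carried a tamoxifen-dependent Cre driven by the human ACTA1 promoter, which is active in skeletal muscle fibres, so that *Ahr* stays intact in the other cells of the muscle, and the AHRfl/fl mice lacked Cre. By the labels, which describe tamoxifen for the AHRmKO mice, smoke began 4 weeks after the last injection, and the study's own text gives both this and a shorter interval. The study's text calls the mice of its chronic smoke experiment aged, but no age in weeks or months is given for them in the sources used here. Air-exposed mice were not analysed here, so no value below compares smoke with air.

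Superoxide is formed as a by-product of respiration and by oxidases such as the NADPH oxidases. Superoxide dismutases convert it to hydrogen peroxide, SOD1 mainly in the cytosol, SOD2 in the mitochondrial matrix and SOD3 outside the cell. Catalase then breaks hydrogen peroxide down in peroxisomes, and peroxiredoxins reduce it with a reactive cysteine that is restored by thioredoxin or, for PRDX6, by glutathione. In muscle fibres, where mitochondria are dense and their activity varies with fibre type, these enzymes limit how far peroxide spreads from its source. The comparison of AHRmKO with AHRfl/fl muscle asks whether the transcripts of this system differ with muscle *Ahr* genotype after chronic smoke. The study places this harvest at a time when AHR activation has fallen back to baseline. A lack of difference therefore does not speak for muscle in the hours just after smoke.

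Libraries held between 30393035 and 37954388 counts, and values are given as CPM (a gene's counts scaled to a common library size) after normalization by the trimmed mean of M values (TMM). Markers of the labelled tissue were high in every library, with the fast myosin *Myh4* at 41410 to 66540 CPM and skeletal actin *Acta1* at 21800 to 28340 CPM. The Y-linked genes *Ddx3y*, *Eif2s3y*, *Kdm5d* and *Uty* had counts in 10 of 10 mice. *Xist*, which is normally transcribed from the inactive X of females, also had more than 10 counts in 5 mice (AHRfl/fl 11, 15 and 33, AHRmKO 9 and 22), with at most 75 counts in a library. *Ahr* itself had 43 to 110 counts in AHRfl/fl and 31 to 80 in AHRmKO mice, and the groups overlapped. Its level was 2.017 ± 0.681 CPM (SD, n = 5) in AHRfl/fl and 1.585 ± 0.443 CPM in AHRmKO muscle, a log2 fold change of -0.35 (95% interval -0.90 to 0.20; edgeR adjusted p = 0.844), which was -0.13 without AHRfl/fl mouse 11 and -0.21 without AHRmKO mouse 34. Counts over the whole gene are a weak check on the genotype, because Cre removes only exon 2 and other cells of the muscle keep the intact gene. Fewer cells of a type and less RNA per cell cannot be told apart in whole muscle.

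None of the 10 enzymes differed between the genotypes beyond the spread between mice. With edgeR's quasi-likelihood test and Benjamini-Hochberg adjustment over 14714 genes, 0 of 10 had an adjusted p under 0.05, where the share over all genes was 0.0068% (1 gene, *Esr1*, whose sequence is in part carried by the Cre transgene). At an unadjusted p under 0.05 the count was also 0 of 10, against 6.61% of all genes. The DESeq2 Wald test and limma-voom likewise called 0 of 10 at either threshold. The CPM of the 5 AHRmKO mice overlapped those of the 5 AHRfl/fl mice for 10 of 10 enzymes, while 1.4% of all genes did not overlap. Of the log2 fold changes, 8 were below 0 and 2 were above it, with a median of -0.08, beside a median of 0.01 over all genes tested, of which 48.5% were below 0. The intervals show how large a difference these mice leave possible. For 7 of the 10 enzymes (*Sod1*, *Sod2*, *Prdx1*, *Prdx2*, *Prdx3*, *Prdx5* and *Prdx6*) the 95% interval lay within 0.35 of 0 on the log2 scale, and over all 10 the intervals ran from -0.59 to 0.51.

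**Figure D1:**
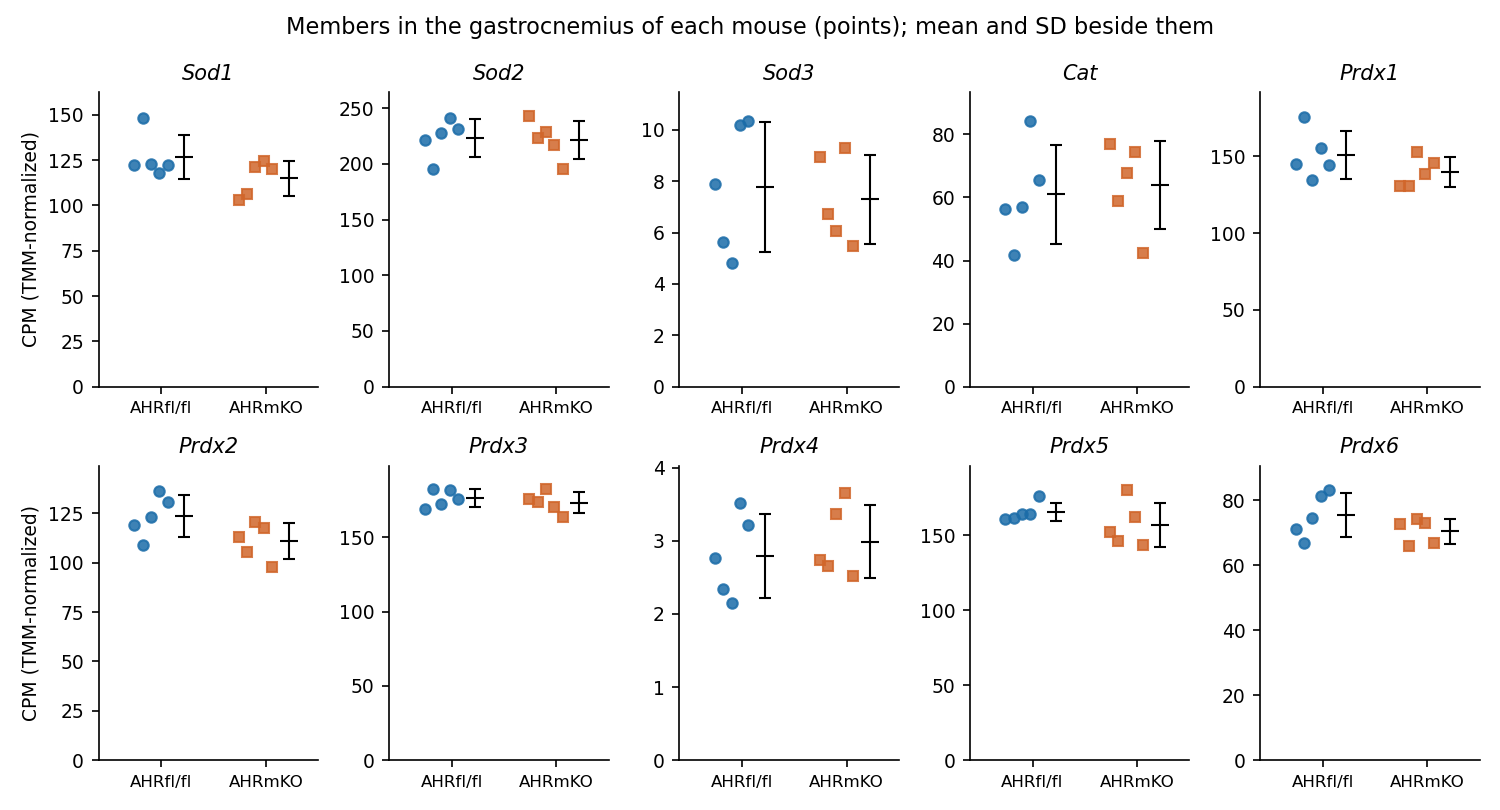
CPM (TMM-normalized, linear axes from 0) of the 10 enzymes in each AHRfl/fl mouse (circles) and AHRmKO mouse (squares), with the mean and SD (n = 5 per genotype) beside the points. In every panel the 2 groups overlap, and the points of *Cat* and *Sod3* lie far apart within each genotype while those of *Prdx3* lie close together.

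**Figure D2:**
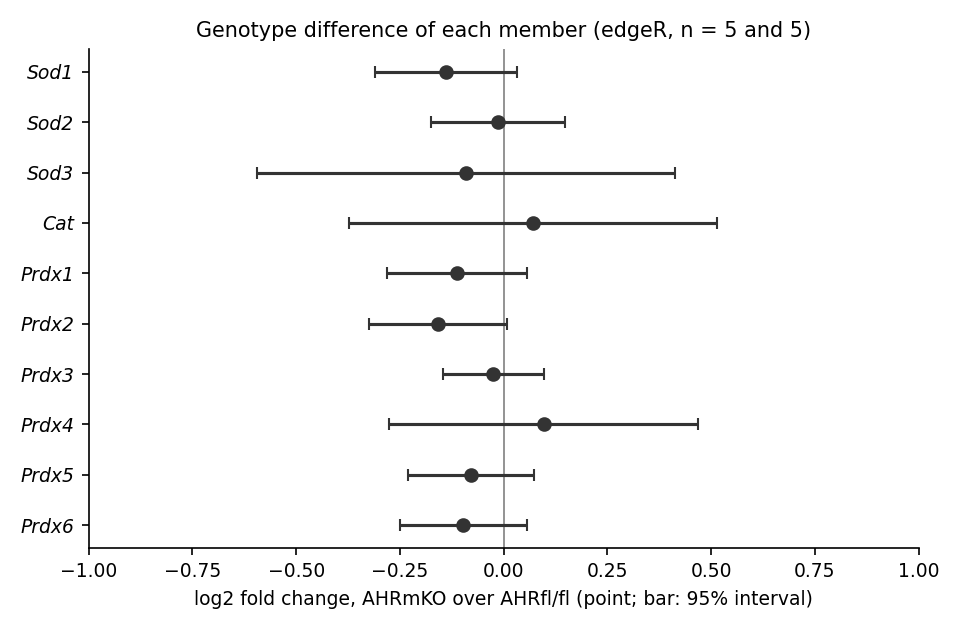
Log2 fold change of each enzyme, AHRmKO over AHRfl/fl (points), with its 95% interval (bars) from edgeR. Every interval includes 0, and the widest are those of *Sod3*, *Cat* and *Prdx4*.

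The promoters of these genes were read because the comparison removes a DNA-binding factor and because several of the enzymes varied together between mice. RefSeq windows of 300 bases on GRCm38.p6, from 250 bases before to 50 bases after the annotated start, were found for 8 of the 10 genes, all but *Sod3* and *Prdx6*. On these windows, 5 motifs were searched on both strands. They are GCGTG, the core that AHR and its partner ARNT recognize; its extended form TNGCGTG; TGACNNNGC, the core of the antioxidant response element; CCAAT, the CCAAT box; and AGGTCA, a nuclear receptor half-site. GCGTG was found in 5 of 8 windows (*Sod1*, *Sod2*, *Prdx2*, *Prdx3*, *Prdx5*) and in 32.4% of 32851 windows of mouse genes. TNGCGTG was in 0 of 8 and in 5.07% of all windows. Those of 4 genes are shown in the direction of transcription, *Sod1* and *Prdx2* for the AHR core in the enzymes with the lowest p values for genotype, *Prdx1* for its antioxidant element core, and *Cat* as the gene with no AHR core and the greatest spread between mice among the abundant enzymes. Capitals mark every match to the 5 motifs, in either direction. *Sod1* is at chr16:90220512-90220811 (+ strand), *Prdx2* at chr8:84969372-84969671 (+), *Prdx1* at chr4:116685349-116685648 (+) and *Cat* at chr2:103485104-103485403 (-).
Sod1: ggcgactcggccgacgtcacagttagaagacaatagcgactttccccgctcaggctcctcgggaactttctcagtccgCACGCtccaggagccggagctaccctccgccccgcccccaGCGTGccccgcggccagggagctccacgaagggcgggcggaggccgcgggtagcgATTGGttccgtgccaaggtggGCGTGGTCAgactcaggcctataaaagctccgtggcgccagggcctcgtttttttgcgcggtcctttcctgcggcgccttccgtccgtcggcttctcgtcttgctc
Prdx2: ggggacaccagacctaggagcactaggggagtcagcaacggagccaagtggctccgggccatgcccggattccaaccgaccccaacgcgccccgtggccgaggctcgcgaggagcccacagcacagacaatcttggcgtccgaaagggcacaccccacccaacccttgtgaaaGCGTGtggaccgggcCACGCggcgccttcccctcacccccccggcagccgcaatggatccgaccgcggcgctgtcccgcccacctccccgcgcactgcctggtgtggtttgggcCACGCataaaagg
Prdx1: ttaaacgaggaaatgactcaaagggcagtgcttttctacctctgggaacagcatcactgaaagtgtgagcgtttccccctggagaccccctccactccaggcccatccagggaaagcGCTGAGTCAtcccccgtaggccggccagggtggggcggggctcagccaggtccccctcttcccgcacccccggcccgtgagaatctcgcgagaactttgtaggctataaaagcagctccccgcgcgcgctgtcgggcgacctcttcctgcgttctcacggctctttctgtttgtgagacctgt
Cat: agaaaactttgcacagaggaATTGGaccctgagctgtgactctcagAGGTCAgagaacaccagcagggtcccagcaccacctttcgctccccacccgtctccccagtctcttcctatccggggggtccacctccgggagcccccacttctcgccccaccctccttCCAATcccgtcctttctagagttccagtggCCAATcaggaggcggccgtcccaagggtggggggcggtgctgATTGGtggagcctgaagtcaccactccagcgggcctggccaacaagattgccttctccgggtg
The *Sod1* window held 3 copies of GCGTG, beginning 172, 132 and 56 bases before the start, and the last of them overlaps a reversed TGACNNNGC that begins at the same base. *Prdx2* held 3 copies, 77 and 62 bases before and 38 bases after the start. *Prdx1* held no GCGTG and a single reversed TGACNNNGC, 133 bases before the start, and *Sod1* and *Prdx1* were the 2 of 8 windows with that core (12.4% of all windows). *Cat* held 4 copies of CCAAT, 230, 85, 55 and 13 bases before the start, and an AGGTCA 204 bases before it. CCAAT was in 4 of 8 windows (*Cat*, *Sod1*, *Sod2*, *Prdx4*) and 37.4% of all, and AGGTCA in 2 of 8 (*Cat*, *Prdx3*) and 16.3%. A match is a run of letters in this window and says nothing of binding in muscle.

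Among the superoxide dismutases, none passed the test. *Sod1* (ENSMUSG00000022982, GRCm38 chr16:90220754-90226329, + strand), the copper-zinc enzyme of the cytosol, was at 122.1, 148.3, 123.1, 117.7 and 122.5 CPM in AHRfl/fl mice 11, 12, 13, 15 and 33, and at 103.1, 106.4, 121.0, 124.6 and 120.3 CPM in AHRmKO mice 8, 9, 19, 22 and 34. AHRfl/fl mouse 12 stood above all others and AHRmKO mice 8 and 9 below them, while the remaining 7 mice shared 1 narrow range. The log2 fold change was -0.14 ± 0.08 (SE; fold 0.908, 95% interval 0.806 to 1.02; adjusted p = 0.811), and the two-sided exact permutation p over the 252 assignments of mice was 0.183. Without AHRfl/fl mouse 12 it was -0.08.

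*Sod2* (ENSMUSG00000006818, chr17:13006846-13040063, + strand), the manganese enzyme of the mitochondrial matrix, had nearly the same mean in both genotypes. Its CPM was 221.7, 195.7, 227.8, 241.2 and 231.6 in the AHRfl/fl mice and 242.7, 222.9, 228.7, 217.4 and 195.9 in the AHRmKO mice, in the same order of mice as above. The highest and the lowest value of each genotype were almost level with those of the other. The fold was 0.991 with a 95% interval of 0.886 to 1.11 (edgeR adjusted p = 0.988).

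*Sod3* (ENSMUSG00000072941, chr5:52363791-52371418, + strand), the secreted enzyme that binds to the extracellular matrix, was low and uneven. It had 7.903, 5.624, 4.823, 10.21 and 10.35 CPM in the AHRfl/fl mice and 8.93, 6.728, 6.05, 9.282 and 5.472 CPM in the AHRmKO mice, from 171 to 357 counts. High and low mice occurred in both genotypes, and the highest mouse was 2.15-fold above the lowest. The log2 fold change was -0.09 ± 0.23 (adjusted p = 0.967), and its sign turned when the presence of *Xist* counts was a covariate (0.06), without AHRfl/fl mouse 15 (0.03) and without AHRfl/fl mouse 33 (0.03).

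*Cat* (ENSMUSG00000027187, chr2:103453849-103485160, - strand), the peroxisomal catalase, was one of the 2 enzymes with a higher mean in AHRmKO muscle, and the difference was far within the spread. Its CPM was 56.35, 41.7, 56.89, 84.38 and 65.44 in the AHRfl/fl mice and 76.85, 58.9, 67.67, 74.33 and 42.25 in the AHRmKO mice. The lowest mouse of each genotype had about the same level, and the highest mouse of all was an AHRfl/fl mouse, 2.02-fold above the lowest. The log2 fold change was 0.07 ± 0.20 (95% interval -0.37 to 0.51; adjusted p = 0.974). Its sign depended on the mice and covariates used, at -0.06 with the level of slow-fibre markers as a covariate and -0.04 without AHRfl/fl mouse 12.

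The peroxiredoxins of the cytosol are PRDX1, PRDX2 and PRDX6, and all 3 transcripts had lower means in AHRmKO muscle without passing the test. *Prdx2* (ENSMUSG00000005161, chr8:84969587-84974834, + strand), a peroxiredoxin also abundant in red blood cells, had the lowest p of the 10 enzymes. Its CPM was 119.2, 109.1, 123.2, 136.2 and 130.5 in the AHRfl/fl mice and 112.8, 105.5, 120.5, 117.4 and 97.81 in the AHRmKO mice. All 5 AHRmKO mice were below the AHRfl/fl median and 2 were below every AHRfl/fl mouse, although AHRfl/fl mouse 12 was as low as the middle of the AHRmKO group. The fold was 0.896 with a 95% interval of 0.799 to 1.01 (p = 0.0605, adjusted p = 0.772, edgeR), and the exact permutation p was 0.0794. The unadjusted p was 0.00429 with the slow-fibre covariate, 0.0271 with an erythroid covariate, 0.00546 with 1 surrogate variable, 0.0169 without AHRfl/fl mouse 12 and 0.0402 without AHRmKO mouse 19. It was higher than reported with the *Xist* covariate (0.0946) and in 7 of the 10 fits that left out a mouse, up to 0.155 without AHRfl/fl mouse 15, and the adjusted p was between 0.288 and 0.994 in all these fits. Its exons share 173 bases with those of *Junb* and 177 bases with those of *Rnaseh2a* on the opposite strand, and whether the library was stranded, on which strand-specific counting depended, is not stated.

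*Prdx1* (ENSMUSG00000028691, chr4:116685544-116700822, + strand), a 2-cysteine peroxiredoxin, ranged from 134.7 to 175.3 CPM in AHRfl/fl and from 130.6 to 153.0 CPM in AHRmKO mice. As for *Sod1*, the highest value belonged to AHRfl/fl mouse 12 and the 2 lowest to AHRmKO mice 8 and 9. The fold was 0.925 (95% interval 0.823 to 1.04; edgeR adjusted p = 0.834), and the log2 fold change of -0.11 was -0.05 without AHRfl/fl mouse 12. *Prdx6* (ENSMUSG00000026701, chr1:161240112-161251219, - strand), the 1-cysteine member, which also has phospholipase activity, ranged from 66.91 to 83.09 and from 65.76 to 74.11 CPM. All 5 AHRmKO mice were below the AHRfl/fl median, as for *Prdx2*, and 4 of them lay inside the AHRfl/fl range. The fold was 0.935 (0.841 to 1.04; edgeR adjusted p = 0.84), and with the slow-fibre covariate the unadjusted p was 0.0187.

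The mitochondrial peroxiredoxins *Prdx3* and *Prdx5* also gave no call. *Prdx3* (ENSMUSG00000024997, chr19:60864051-60874556, - strand), which is confined to mitochondria, was at 168.8, 182.3, 172.2, 181.8 and 175.9 CPM in the AHRfl/fl mice and at 175.4, 174.0, 182.6, 170.3 and 163.9 CPM in the AHRmKO mice. Both genotypes filled nearly the same range, and the highest mouse was only 1.11-fold above the lowest. The fold of 0.983 had the narrowest 95% interval of the 10, from 0.904 to 1.07 (edgeR adjusted p = 0.963). *Prdx5* (ENSMUSG00000024953, chr19:6906697-6910106, - strand), which is found in mitochondria, peroxisomes and cytosol, was at 160.7 to 176.0 CPM in AHRfl/fl and 143.3 to 179.9 CPM in AHRmKO mice. Of the AHRmKO mice, 3 were below and 1 was above every AHRfl/fl mouse. Its fold was 0.947 (0.853 to 1.05; edgeR adjusted p = 0.879), and 409 bases of its exons are shared with *Trmt112* on the opposite strand. *Prdx4* (ENSMUSG00000025289, chrX:155323918-155340754, - strand), the peroxiredoxin of the endoplasmic reticulum, had only 76 to 139 counts. It was at 2.144 to 3.518 CPM in AHRfl/fl and 2.512 to 3.655 CPM in AHRmKO mice, with a fold of 1.07 (0.826 to 1.38; edgeR adjusted p = 0.953). Its log2 fold change of 0.10 ran from 0.01 without AHRmKO mouse 22 to 0.19 without AHRfl/fl mouse 15.

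Per length of transcript the mitochondrial peroxiredoxins led. CPM per kilobase of exon, over all 10 mice, was 118 ± 4.23 (SD) for *Prdx3* and 75.2 ± 5.44 for *Prdx5*, followed by *Prdx1* at 47.7 ± 4.44 and *Prdx2* at 38.4 ± 3.76. *Sod1* at 30.5 ± 3.04, *Cat* at 23.9 ± 5.39 and *Sod2* at 22.2 ± 1.62 formed a middle group, with *Prdx6* at 15.2 ± 1.21 below it. *Sod3* at 2.02 ± 0.552 and *Prdx4* at 1.37 ± 0.246 came last. The order held in 10 of 10 mice between all neighbours but 3. *Prdx2* exceeded *Sod1* in 9 mice, *Sod1* exceeded *Cat* in 8 and *Cat* exceeded *Sod2* in 6, so that *Cat* and *Sod2* did not differ beyond their spread. Exon length counts all annotated exons of a gene, and with the longest transcript in its place *Prdx2* (72.7) passed *Prdx1* (63.3), *Sod2* (38.0) passed *Sod1* and *Cat*, *Prdx6* (28.5) passed *Cat* (23.9), and *Prdx4* (2.82) passed *Sod3* (2.02), which was then the lowest.

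**Figure D3:**
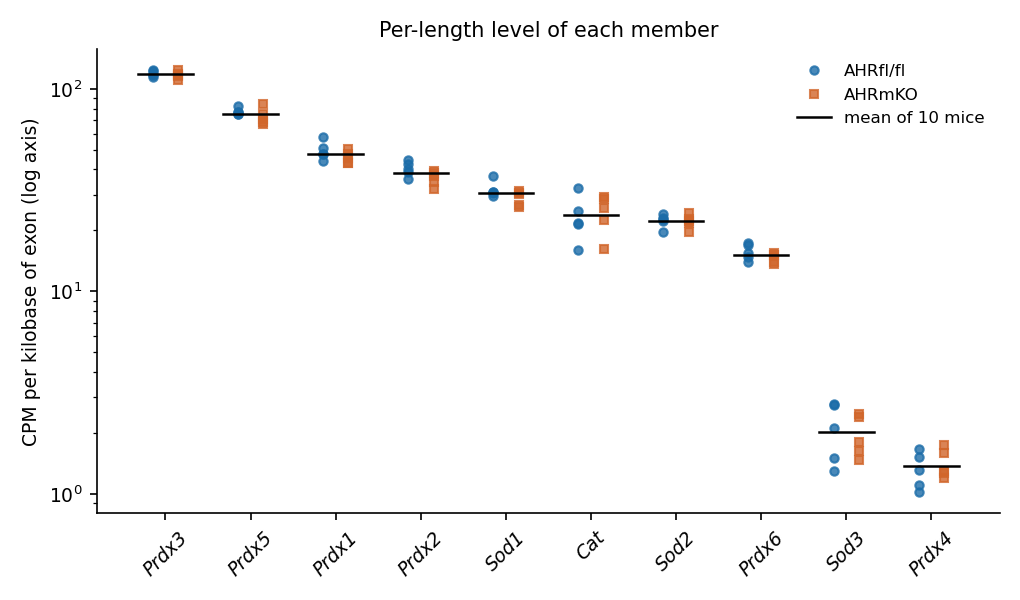
CPM per kilobase of exon (log axis) of each enzyme in AHRfl/fl mice (circles) and AHRmKO mice (squares), with the mean of the 10 mice as a line, in falling order. *Prdx3* is highest at 118 and, by this length, *Prdx4* lowest at 1.37, and the points of *Cat* overlap those of *Sod1* and of *Sod2*.

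Grouped by where each enzyme mainly works, *Sod2*, *Prdx3* and *Prdx5* gave 57.6% of the summed CPM per kilobase of the 10 genes (55.6% to 59.2% over the mice), and the cytosolic *Sod1*, *Prdx1*, *Prdx2* and *Prdx6* gave 35.2% (32.9% to 37.9%). *Cat* gave 6.36%, *Sod3* 0.536% and *Prdx4* 0.365%. The shares depend on the length used, which counts all annotated exons. With the longest transcript in its place *Prdx2* was at 72.7 CPM per kilobase instead of 38.4. *Prdx4* was then at 2.82 instead of 1.37, above *Sod3* at 2.02. The cytosolic sum was 138 ± 5.92 in AHRfl/fl and 126 ± 7.17 in AHRmKO muscle, and the mitochondrial sum 219 ± 5.47 and 213 ± 11.9. These sums are a description of transcript levels, for which no test was run, and *Prdx5* was counted as mitochondrial although its protein is also found elsewhere.

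The enzymes differed in how much they varied between mice of 1 genotype. The SD of log2 CPM within genotype was 0.0531 for *Prdx3*, and only 2.06% of the 1068 genes of like level (mean CPM within a factor of 2) had a smaller SD. At the other end it was 0.36 for *Cat*, above that of 95.4% of 2537 genes of like level, and 0.423 for *Sod3*, above that of 92.4% of 3733 genes. The other 7 lay between 0.101 (*Prdx5*) and 0.265 (*Prdx4*), and 30.9% to 54.9% of the genes of like level had a smaller SD.

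The level of slow-fibre markers also varied widely between mice, and none of the 10 enzymes had an adjusted p under 0.05 for its correlation with them in the setting reported. The 8 slow-fibre markers, led by the slow myosin *Myh7* with 115 to 24041 counts, summed to 63.15 to 1809 CPM in AHRfl/fl and 227.7 to 2209 CPM in AHRmKO mice, a 35-fold range. All 8 had a higher mean in AHRmKO muscle, with a median log2 fold change of 0.44, but none passed the genotype test, none was at 0 in all mice, and the exact permutation p of their mean log2 CPM between genotypes was 0.452. Over the 10 mice, *Cat* followed this mean with Pearson's r = 0.85 (permutation p = 0.00191, adjusted over 100 pairs of enzyme and list p = 0.0955) and Spearman's rho = 0.87 (permutation p = 0.0021, adjusted p = 0.103). Leaving out the 2 mice most distant from the list's median gave r = 0.74. With each mouse set against its genotype mean, r was 0.85 and the adjusted permutation p 0.044. The permutation took the 10 centred values as free although 2 means had been removed, so p for centred values is too low. With library size only r was 0.86 and the adjusted permutation p 0.047. Leaving out AHRmKO mouse 34 gave r = 0.94 with an adjusted permutation p of 0.017, and leaving out AHRfl/fl mouse 12 gave r = 0.77. With a mouse left out the adjusted permutation p was as high as 0.42, so the call depended on the setting. *Sod3* (r = 0.79), *Prdx4* (0.77), *Prdx6* (0.67) and *Sod2* (0.66) had positive r as well, with adjusted permutation p values of 0.183, 0.183, 0.271 and 0.271, whereas r was 0.09 for *Prdx3* and -0.49 for *Sod1* (adjusted permutation p = 0.896 and 0.533). With each mouse set against its genotype mean, *Prdx6* had r = 0.90 with an adjusted permutation p of 0.035, and *Prdx2* had r = 0.81 (adjusted permutation p = 0.105) in place of 0.48. The r of *Prdx3* was 0.55 with library size only and 0.46 without AHRfl/fl mouse 12 and AHRmKO mouse 8. The *Sod1* value rested on 2 mice, since r was 0.35 without AHRfl/fl mouse 12 and AHRmKO mouse 8. Without these 2 mice r was 0.36 for *Sod2*, 0.78 for *Sod3*, 0.89 for *Prdx4* and 0.70 for *Prdx6*. Other lists gave r of like size, none of them called. *Prdx4* had r = 0.79 with fibroblast and 0.75 with satellite cell markers, and *Cat* had 0.72 with fibroblast markers. With endothelial markers r was 0.71 for *Sod2* and -0.74 for *Sod1*. The part of fibre makeup in the levels of the enzymes was not tested.

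In the setting reported, *Sod3* was the only enzyme with a called correlation to a marker list. With genotype means removed, *Cat* and *Prdx6* also fell under 0.05 with slow-fibre markers, but by permutation p values that are too low for centred values. Over the 10 mice the log2 CPM of *Sod3* followed the mean of 8 fibroblast markers, among them *Pdgfra*, *Dcn* and the collagen genes *Col1a1*, *Col1a2* and *Col3a1*, with r = 0.95 (permutation p = 0.00014, adjusted p = 0.014) and rho = 0.95 (permutation p = 0.00012, adjusted p = 0.012). Leaving out the 2 mice most distant from the list's median gave r = 0.98, removing genotype means gave 0.95, and leaving out AHRfl/fl mouse 13 raised the adjusted permutation p to 0.078. The fibroblast markers summed to 647.5 to 1059 CPM in AHRfl/fl and 624.5 to 1212 CPM in AHRmKO mice, none was at 0 in all mice, and their mean did not separate the genotypes (exact permutation p = 0.778). Whether *Sod3* transcripts came from fibroblasts was not tested.

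**Figure D4:**
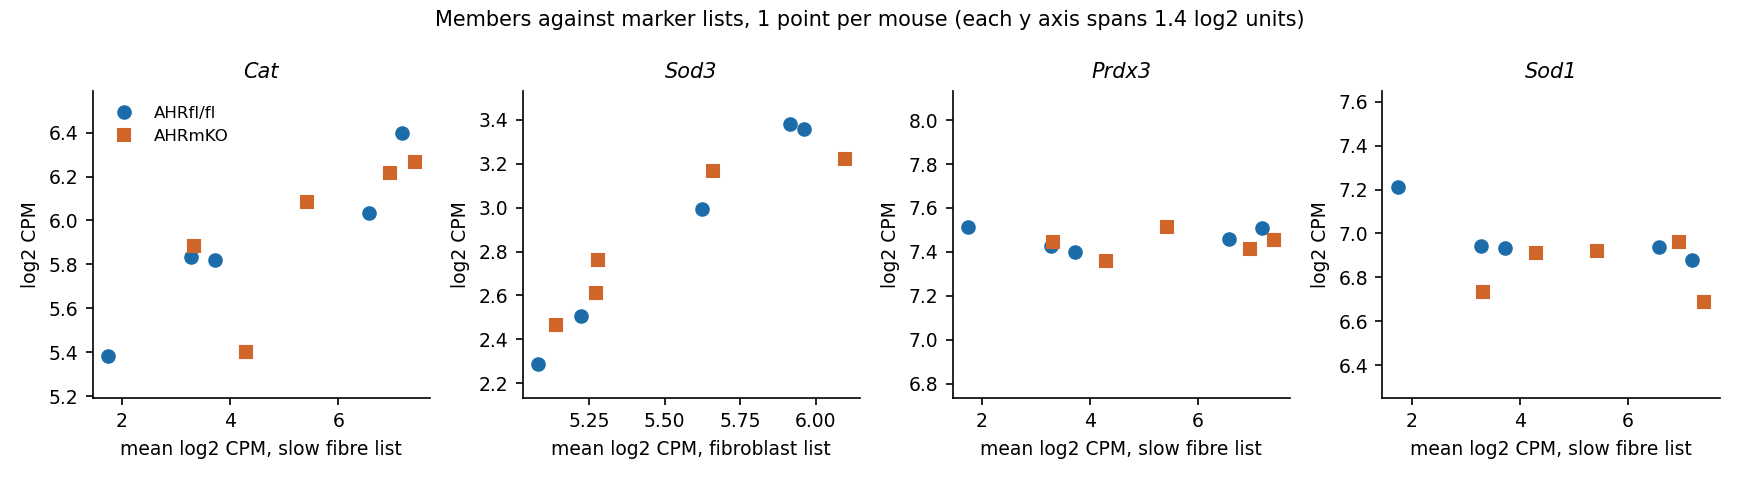
Log2 CPM of *Cat*, *Prdx3* and *Sod1* against the mean log2 CPM of 8 slow-fibre markers, and of *Sod3* against that of 8 fibroblast markers, 1 point per mouse (circles AHRfl/fl, squares AHRmKO), with y axes of equal span. *Cat* (r = 0.85) and *Sod3* (r = 0.95) rise along the marker axis in both genotypes, and *Prdx3* (r = 0.09) spans a narrow range.

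Between the enzymes themselves, 37 of the 45 pairs had a positive r over the 10 mice, and 2 pairs had an adjusted permutation p under 0.05 in the setting reported. The share of positive r among pairs of other genes was not computed, so these counts are a description only. *Prdx2* and *Prdx6* had r = 0.92 (permutation p = 0.00033, adjusted over 45 pairs p = 0.0149) and rho = 0.92 (adjusted permutation p = 0.0279), and leaving out the 2 mice most distant from the *Prdx2* median gave r = 0.94. With 9 mice the adjusted permutation p was 0.0733 without AHRfl/fl mouse 12 and 0.0615 without AHRfl/fl mouse 15. *Sod2* and *Cat* had r = 0.89 (permutation p = 0.00153, adjusted p = 0.0344) and rho = 0.78 (adjusted permutation p = 0.0945). Their relation leaned on the lowest 2 mice for both genes, AHRfl/fl mouse 12 and AHRmKO mouse 34, without which r was 0.59, and the adjusted permutation p rose above 0.05 in 7 of the 10 fits that each left out 1 mouse, all but those without AHRfl/fl mouse 13, AHRmKO mouse 19 or AHRmKO mouse 22. The other 4 pairs among *Sod2*, *Cat*, *Prdx2* and *Prdx6* had r from 0.67 to 0.71 and were not called in the setting reported (adjusted permutation p = 0.111 to 0.12). Without the same 2 mice their r was 0.36 to 0.50. With genotype means removed, r of these 4 pairs was 0.74 to 0.93, highest for *Cat* and *Prdx2*. It was then 0.90 for both called pairs. Their adjusted permutation p, which is too low for centred values, was 0.009 (*Prdx2* and *Prdx6*) and 0.0175 (*Sod2* and *Cat*). As *Cat* and *Prdx2* then had a larger r than either, the absence of a call for them holds for the setting reported only. *Sod1* and *Prdx1* had the next largest r, 0.81 (permutation p = 0.00668, adjusted p = 0.1), but rho was 0.35, and r was 0.36 without AHRfl/fl mouse 12 and AHRmKO mouse 8. *Sod1* had a negative r with *Sod2* (-0.64), *Cat* (-0.54) and *Sod3* (-0.32), and none of these was called (adjusted permutation p = 0.157, 0.246 and 0.519). Without AHRfl/fl mouse 12 and AHRmKO mouse 8 these r values were -0.06, 0.06 and 0.08, and over all 10 mice with genotype means removed they were -0.79, -0.56 and -0.42.

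**Figure D5:**
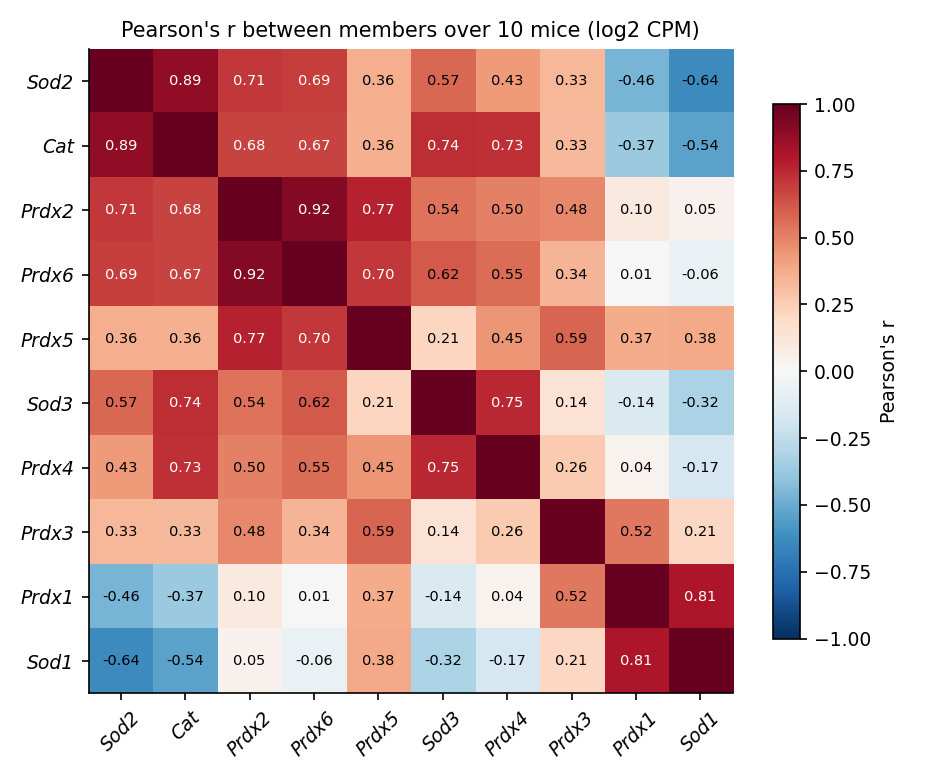
Pearson's r of log2 CPM between each pair of enzymes over the 10 mice, from -1 (blue) to 1 (red). The 6 pairs among *Sod2*, *Cat*, *Prdx2* and *Prdx6* have r from 0.67 to 0.92, of which 2 pairs were called in the setting reported (*Prdx2* with *Prdx6*, *Sod2* with *Cat*).

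The genes most like each enzyme over the 10 mice, among 6969 genes with a mean of at least 10 CPM, differed from one enzyme to the next. For *Cat* they were *Fabp3*, a fatty acid binding protein (r = 0.99), and *Hadhb* (0.99) and *Acaa2* (0.98), thiolases of mitochondrial fatty acid oxidation. For *Sod2* they were *Etfa* (0.98), a subunit of the electron transfer flavoprotein, the mitochondrially encoded *mt-Cytb* (0.96) and the acyl-CoA dehydrogenase *Acadm* (0.95). *Prdx5* was closest to *Ndufb10* (0.98) and *Ndufa5* (0.95) of complex I and *Uqcrb* (0.94) of complex III, and *Prdx2* to *Mtfp1* (0.96), *Uqcrq* (0.95) and *Ndufb3* (0.94). *Sod1* was closest to *Fau* (0.96), *Dohh* (0.95) and *Rex1bd* (0.95), and *Prdx1* to the ribosomal protein gene *Rpl7* (0.97), *Psma5* (0.93) and *Borcs5* (0.93). *Sod3* had *Cap1* (0.97), *Islr* (0.96) and *Aspn* (0.96), and *Prdx4* had *Smpd2*, *Ppib* and *Htra3* (each 0.92). *Prdx6* had *Mtx2* (0.94), *Hccs* (0.94) and *Ap5s1* (0.93). The lowest values belonged to *Prdx3*, with *Mgst3* (0.87), *Eci2* (0.86) and *Chd1* (0.84). These r values are the highest of many and are given as a description without a p.

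The genes that feed, recycle and regulate these enzymes gave the same count at the adjusted threshold. Of 16 tested genes for recycling and support (thioredoxins, their reductases, sulfiredoxin, sestrins, the SOD1 copper chaperone and others), edgeR called 0, with 1 higher and 1 lower at an unadjusted p under 0.05 (6.61% over all genes) and a median log2 fold change of -0.05, which ran from -0.08 without AHRfl/fl mouse 15 to -0.02 without AHRmKO mouse 8. *Txnrd1*, the cytosolic thioredoxin reductase, was at 71.0 to 85.16 CPM in AHRfl/fl and 72.82 to 106.7 CPM in AHRmKO mice (fold 1.16, edgeR adjusted p = 0.744). Its log2 fold change of 0.22 ran from 0.14 without AHRmKO mouse 19 to 0.28 without AHRmKO mouse 9. *Sesn1*, a sestrin, was at 18.56 to 26.21 and 15.8 to 21.08 CPM (fold 0.836, adjusted p = 0.668). Sulfiredoxin, *Srxn1*, which restores overoxidized peroxiredoxins, had the widest fold change of the list, 0.60 ± 0.55 (log2, SE; edgeR adjusted p = 0.884).

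Glutathione reductase, *Gsr*, which regenerates the glutathione used by glutathione peroxidases and PRDX6, was the member of these lists that came nearest to a call. Its CPM was 30.22, 29.13, 26.63, 26.14 and 26.8 in AHRfl/fl mice 11, 12, 13, 15 and 33 and 20.91, 23.6, 20.8, 20.01 and 23.56 in AHRmKO mice 8, 9, 19, 22 and 34. The 2 groups did not overlap, as for 1.4% of all genes. The fold was 0.784 (95% interval 0.704 to 0.872; p = 0.000259, adjusted p = 0.544, edgeR), and the exact permutation p was 0.00794, the smallest that 5 and 5 mice can give. Any gene whose groups do not overlap has that permutation p. With the DESeq2 Wald test, which called 20 genes in all where edgeR called 1, the adjusted p of *Gsr* was 0.0186. *Gpx4*, the glutathione peroxidase that reduces lipid peroxides, was at 233.9 to 286.1 CPM in AHRfl/fl and 211.5 to 241.4 CPM in AHRmKO mice (fold 0.885, edgeR adjusted p = 0.683). Over the 6 tested genes for other peroxide reduction, edgeR called 0, with 2 lower (*Gsr* and *Gpx4*) at an unadjusted p under 0.05, against 6.61% over all genes, and a median log2 fold change of -0.09, which was -0.17 without AHRmKO mouse 22, -0.16 without AHRfl/fl mouse 13 and -0.15 with the slow-fibre covariate.

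Among 17 tested sources of superoxide and peroxide, edgeR called 0, with 1 higher at an unadjusted p under 0.05 (6.61% over all genes) and a median log2 fold change of 0.06, which was -0.01 without AHRfl/fl mouse 12. That gene was *Maob*, a monoamine oxidase of the outer mitochondrial membrane that forms hydrogen peroxide, at 15.29 to 25.32 CPM in AHRfl/fl and 23.14 to 30.41 CPM in AHRmKO mice (fold 1.34, edgeR adjusted p = 0.627). Its paralog *Maoa* had a fold of 1.12 (edgeR adjusted p = 0.815). The log2 fold change of *Maoa*, 0.16, ran from 0.10 without AHRfl/fl mouse 33 to 0.22 without AHRfl/fl mouse 12. Among 13 regulators, edgeR called 0, with 1 lower at an unadjusted p under 0.05 (6.61% over all genes) and a median of -0.06, which was 0.02 without AHRfl/fl mouse 12. *Esrra*, a nuclear receptor that drives mitochondrial genes and lies just upstream of *Prdx5* on chromosome 19, was at 133.0 to 154.3 CPM in AHRfl/fl and 124.5 to 134.2 CPM in AHRmKO mice (fold 0.898, edgeR adjusted p = 0.665). *Maff*, a small MAF protein, had a log2 fold change of -0.46 (edgeR adjusted p = 0.811), or -0.21 without AHRfl/fl mouse 12, and *Nfe2l2*, which encodes the antioxidant regulator NRF2, a log2 fold change of 0.14 ± 0.32 (edgeR adjusted p = 0.964). The DESeq2 Wald test called 0 genes in these lists other than *Gsr*.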

How the data were processed

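RNA of the gastrocnemius of 10 male mice was sequenced after poly(A) selection. Per the study's methods, the authors used Trimmomatic 0.36 for trimming, STAR 2.5.2b for mapping to GRCm38 and featureCounts for uniquely mapped reads in exons, and they deposited raw counts per gene, 1 column per mouse, not normalized or pooled. The methods make strand-specific counting conditional on a stranded library and do not say whether the library was one. The Ensembl release is not given in the sources used here. Reads carry no molecular identifiers, so precision from counts covers counting error only. No litters are labelled.

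Groups came from the genotype labels. GENCODE M21 named 99.47% of the rows and gave exon lengths. Counts were analysed with edgeR 4.0.16 in R 4.3.3 (filterByExpr at 10 counts and 15 in total, TMM, quasi-likelihood test with robust estimation, Benjamini-Hochberg adjustment over 14714 genes), and the fit was tested on simulated data. Log2 CPM used a prior count of 2. Correlations of log2 CPM used 100000 permutations. With genotype means removed, the 10 centred values were permuted freely, which makes p too low. Cell type lists were scored by the mean log2 CPM of their genes, and 10 lists were compared with each enzyme. The members and lists were chosen with earlier results of these data known. The genes named are the 10 enzymes and *Ahr*, in each pathway list any gene with an adjusted p under 0.05 and the 2 with the lowest p, and the 3 genes most alike each enzyme. *Srxn1*, *Nfe2l2* and *Esr1* were chosen after their values were seen.

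The comparison was repeated with DESeq2 1.42.0, limma-voom (limma 3.58.1), DESeq2's size factors, library size alone, no filter beyond 1 count, at least 10 counts in every mouse, no robust estimation, a slow-fibre or erythroid covariate, 1 surrogate variable (sva 3.50.0), a threshold of 0.1, and each mouse left out. A covariate for *Xist* counts, and a slow-fibre list without *Atp2a2*, were added after the data were seen.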

Additional observations from a re-analysis of the deposited data

Results flagged for a closer look

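Among 38 groups of 5 mice looked at (19 genes in each genotype), 4 held a mouse whose gap to the nearest other was over 0.71 of the group's range on the log2 scale, where chance gives about 1.9. *Sod1* in AHRfl/fl mouse 12 was at 148.3 CPM, the highest of its genotype, with a gap of 0.805 of the range. *Txnrd1* in the same mouse was at 85.16 CPM, with a gap of 0.762. *Prdx5* in AHRfl/fl mouse 33 was at 176.0 CPM, the highest of its genotype, with a gap of 0.761. *Maff* in AHRmKO mouse 34 was at 12.14 CPM, the highest of its genotype, with a gap of 0.746.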

How the results depend on the processing

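No paired analysis was possible because no animal number occurs in both genotypes. Under each alternative run, 0 of the 10 enzymes had an adjusted p under 0.05, and the lowest adjusted p was 0.288 (*Prdx2* with 1 surrogate variable). The number of enzymes with an unadjusted p under 0.05, 0 in the comparison as reported, was 1 with library size only (*Sod1*), 2 with the slow-fibre covariate (*Prdx2*, *Prdx6*), 1 with the erythroid covariate (*Prdx2*), 2 with 1 surrogate variable (*Prdx2*, *Prdx6*), and 0 to 1 with a mouse left out. The genes called over all genes tested in each fit, 1 as reported, were 20 with DESeq2, 5 with no filter, 2 with the slow-fibre covariate and 1 to 6 with a mouse left out (6 without AHRmKO mouse 34). Over all genes, those with an unadjusted p under 0.05 numbered 972 as reported. They numbered 1062 with library size only, 1136 with the slow-fibre covariate, 813 with the erythroid covariate and 1354 with 1 surrogate variable. With a mouse left out they numbered 704 to 1215, and with no filter, where more genes were tested, 1800. DESeq2 called 1 gene for other peroxide reduction (*Gsr*). The log2 fold change of *Cat* turned to -0.0588 with the slow-fibre covariate, -0.0107 with the erythroid covariate and -0.0181 with 1 surrogate variable, and ran from -0.0408 to 0.217 with a mouse left out. That of *Sod3* turned to 0.0626 with the *Xist* covariate and ran from -0.225 to 0.0318 with a mouse left out, and that of *Sod2* ran from -0.0589 to 0.0273. The other 7 enzymes kept their sign in all alternatives run. With a mouse left out, their log2 fold changes ran from -0.17 to -0.08 (*Sod1*), -0.15 to -0.05 (*Prdx1*), -0.20 to -0.12 (*Prdx2*), -0.04 to -0.01 (*Prdx3*), 0.01 to 0.19 (*Prdx4*), -0.13 to -0.05 (*Prdx5*) and -0.14 to -0.06 (*Prdx6*). For these turns of sign the cause was not tested. With a mouse left out, r was 0.83 to 0.96 for *Sod2* and *Cat*, 0.89 to 0.95 for *Prdx2* and *Prdx6*, 0.94 to 0.98 for *Sod3* and the fibroblast list, -0.49 to 0.22 for *Prdx1* and -0.0759 to 0.449 for *Prdx3* with the slow-fibre list. Leaving out the 2 mice most distant from the slow-fibre median gave r = 0.35 for *Sod1* and 0.56 for *Prdx1*. Without *Atp2a2* in that list r of *Cat* was 0.84. With the longest transcript as the length, CPM per kilobase was 88.1 for *Prdx5*, 72.7 for *Prdx2*, 63.3 for *Prdx1*, 38.0 for *Sod2*, 28.5 for *Prdx6* and 2.82 for *Prdx4*, since these genes have exons outside their longest transcript. Depth limits mainly *Prdx4*, with 76 counts in 1 library, for which counting error alone is 11.5%.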
